A study of Triticum aestivum with 13 samples.

Results

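The transcripts described here are 83 of the 61179 probe sets tested, namely those that were higher in all 3 resistant wheat lines than in the susceptible parent. A probe set is the group of short probes that reads 1 transcript on an array. Bread wheat leaves were collected from 4 near-isogenic lines, with 3 biological repeats per line. Tugela, which carries no Dn gene (Dn0), is susceptible to the Russian wheat aphid, Diuraphis noxia. TugelaDn1 is labelled antibiotic (the plant harms the aphid), TugelaDn2 tolerant (the plant withstands feeding) and TugelaDn5 both antibiotic and antixenotic (aphids avoid the plant). Plants of every line, Tugela included, carried 10 aphids of biotype SA1 each for 48 h and were at the three-leaf stage, and the first leaf was left out of the harvest. As no uninfested plants were analysed here, levels that existed before the aphids fed cannot be told apart from responses to them. The labels describe the lines as near-isogenic and do not give the size of the donor segment that accompanies each Dn gene.

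Values are log2 signals, the log2 of the scaled intensity with values under 16 set to 16, so that 4 is the floor. A member had its lowest value among the 9 resistant repeats above its highest value among the 3 Tugela repeats, a mean at least 0.8 above the Tugela mean in each resistant line, and a mean of at least 8 over the resistant repeats. The first condition was met by 463 probe sets (0.757% of those tested), the second left 192 of these, and the last left 83 (0.136%). Members were thus chosen by their measured difference from Tugela, and therefore the values of that comparison are given as a description and without a test. The mirror conditions, with every resistant repeat below every Tugela repeat, were met by 459 probe sets (0.750%), of which 117 had the step of 0.8 in each line and 17 had a Tugela mean of at least 8. The members' number rested most on Tugela repeat 1, since 241 probe sets met the rule without that repeat, 78 of them members. It also followed the chosen step and level, with 139 probe sets at a step of 0.5, 42 at 1.2, 117 at a level of 7 and 53 at 9.

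The Dn genes are resistance loci that were crossed into wheat cultivars to limit damage by this aphid. The aphid feeds on phloem sap and causes leaf rolling and chlorotic streaking in susceptible plants. Plants respond to phloem feeders with signalling through salicylic acid and jasmonic acid, with pathogenesis-related proteins such as the thaumatin-like PR5, and with changes in cell walls. Bread wheat is hexaploid, so that a probe set may also read the near-identical copies of a gene on the other subgenomes. In samples of whole leaves, fewer cells of a type and less RNA per cell cannot be told apart.

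The leaf label was checked on 34 probe sets of 5 photosynthesis genes. For each gene the brightest probe set had a mean of 11.38 to 16.78 over the 12 repeats, led by rbcl (large subunit of Rubisco) on Ta.24976.1.S1_x_at (16.51 to 17.20) and PsbO (a photosystem II protein) on Ta.841.1.S1_a_at (16.08 to 16.68). Other probe sets of the list were dim, 20 of the 34 with a mean under 8 and a median of 6.66 over the list. Most of the 34 read rbcl. For 7 seed storage genes the brightest probe sets had means of 4.14 to 6.86, with a median of 5.17 over the 13 probe sets of that list.

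**Figure D1:**
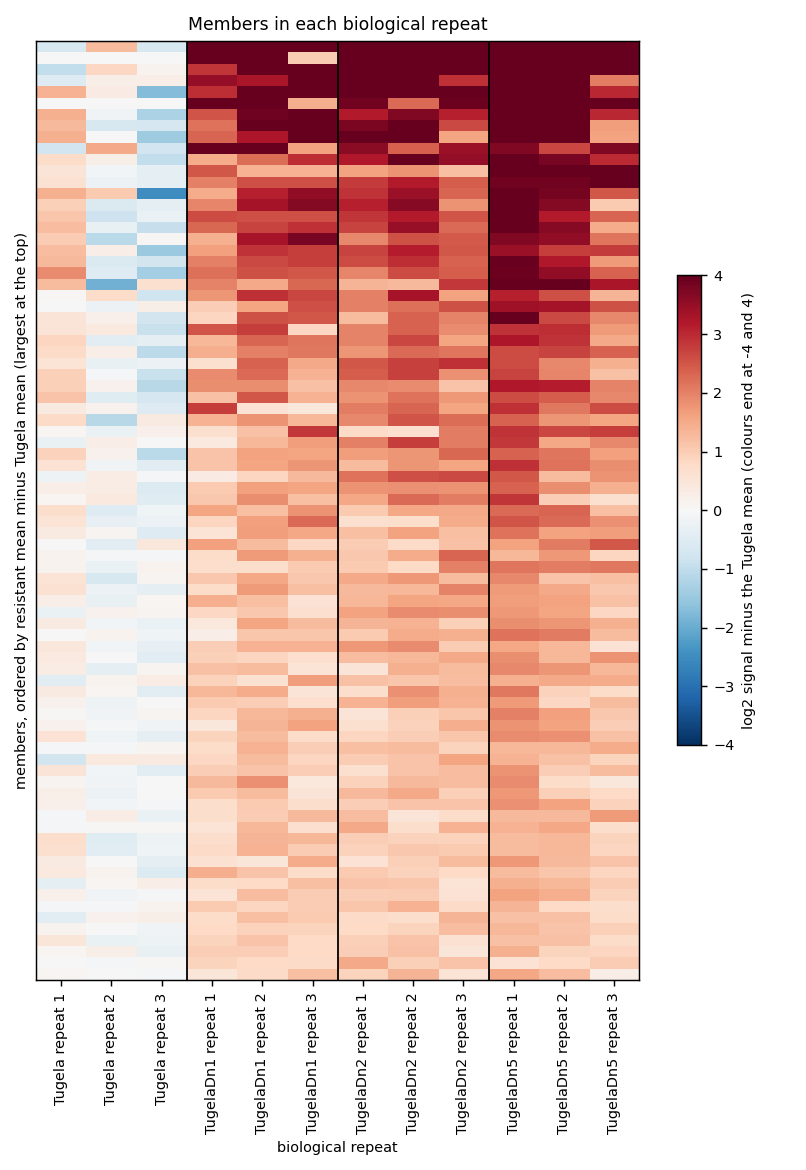
Heat map of the 83 members (rows) in the 12 biological repeats (columns), coloured by log2 signal minus the member's Tugela mean, with colours ending at -4 and 4. Differences of the resistant mean from the Tugela mean run from 7.73 at the top to 0.91 at the bottom, and TugelaDn1 repeat 3 is pale in 3 rows near the top.

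Over the members, the mean of the resistant lines was above the Tugela mean by a median of 1.61 (3.05-fold), with quartiles of 1.18 and 2.65, against a median of 0.00 over all probe sets. Per line, the median difference was 1.27 in TugelaDn1 (2.41-fold), 1.53 in TugelaDn2 (2.90-fold) and 1.91 in TugelaDn5 (3.75-fold). The difference was at least 2-fold in 77 members, at least 4-fold in 31, at least 8-fold in 14 and at least 16-fold in 6. The resistant means lay between 8.02 and 14.08, 30 of them under 9 and 8 of them at 12 or more. Between the highest Tugela repeat and the lowest resistant repeat there was a gap of 0.33 (median over members, range 0.01 to 5.74), which exceeded 1 in 9 members and was under 0.1 in 12. Most members were thus moderately expressed transcripts with a several-fold step and a narrow gap, as the heat map by repeat shows.

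The platform table paired 5 members with 4 genes, and 78 members had no gene in the tables used. In the following, the repeats of a line are always given in the order 1, 2 and 3. SAHH, S-adenosylhomocysteine hydrolase, breaks down the by-product of methyl transfer reactions and so keeps S-adenosylmethionine-dependent methylation running. It was read by members Ta.1258.1.S1_a_at and Ta.1258.2.S1_x_at, the only probe sets of that transcript cluster. Ta.1258.1.S1_a_at had log2 signals of 13.64, 12.46 and 12.76 in Tugela, 13.66, 14.30 and 14.27 in TugelaDn1, 13.93, 13.87 and 13.88 in TugelaDn2, and 14.22, 14.27 and 13.84 in TugelaDn5. Ta.1258.2.S1_x_at had 12.25, 11.17 and 11.45 in Tugela, 12.37, 13.01 and 12.63 in TugelaDn1, 12.55, 12.70 and 12.68 in TugelaDn2, and 12.89, 12.96 and 12.48 in TugelaDn5. Tugela repeat 1 almost reached the resistant range on both probe sets, with gaps of 0.02 and 0.11 to TugelaDn1 repeat 1, the lowest resistant repeat, whereas the other Tugela repeats were lower. The resistant mean was 2.11-fold the Tugela mean on the first and 2.10-fold on the second.

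LOC542941, a gene known only by its number, had the largest difference among the members with a gene (Ta.13334.1.A1_at). Its log2 signals were 4.68, 6.47 and 5.80 in Tugela, 8.50, 10.33 and 10.64 in TugelaDn1, 10.15, 9.96 and 10.38 in TugelaDn2, and 10.34, 10.98 and 10.93 in TugelaDn5. All Tugela repeats were dim and 8 of the 9 resistant repeats were bright, with TugelaDn1 repeat 1 between them, and the resistant mean was 24.2-fold the Tugela mean. LOC100049056 (Ta.5456.1.A1_at) had 6.95, 7.26 and 6.39 in Tugela, 7.96, 8.72 and 8.08 in TugelaDn1, 8.43, 9.15 and 8.92 in TugelaDn2, and 9.73, 7.86 and 7.50 in TugelaDn5. TugelaDn5 repeat 1 was its highest value and TugelaDn5 repeat 3 its lowest resistant value, 0.24 above Tugela. LOC542994 (Ta.28354.1.S1_at) had 11.28, 10.54 and 10.62 in Tugela, 11.69, 11.94 and 11.62 in TugelaDn1, 11.75, 11.94 and 11.42 in TugelaDn2, and 11.98, 11.99 and 11.54 in TugelaDn5. The step of LOC542994 was small (1.93-fold), and Tugela repeat 1 again lay just under the resistant repeats. The other probe sets of its transcript cluster, no members, overlapped between Tugela and the resistant lines. Their differences were 0.13 on Ta.28354.2.S1_at, 0.13 on Ta.28354.2.S1_x_at, 0.26 on Ta.28354.3.S1_x_at and -0.49 on Ta.28354.4.S1_at. On Ta.28354.1.A1_at, which was near the floor, the difference was -0.60.

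**Figure D2:**
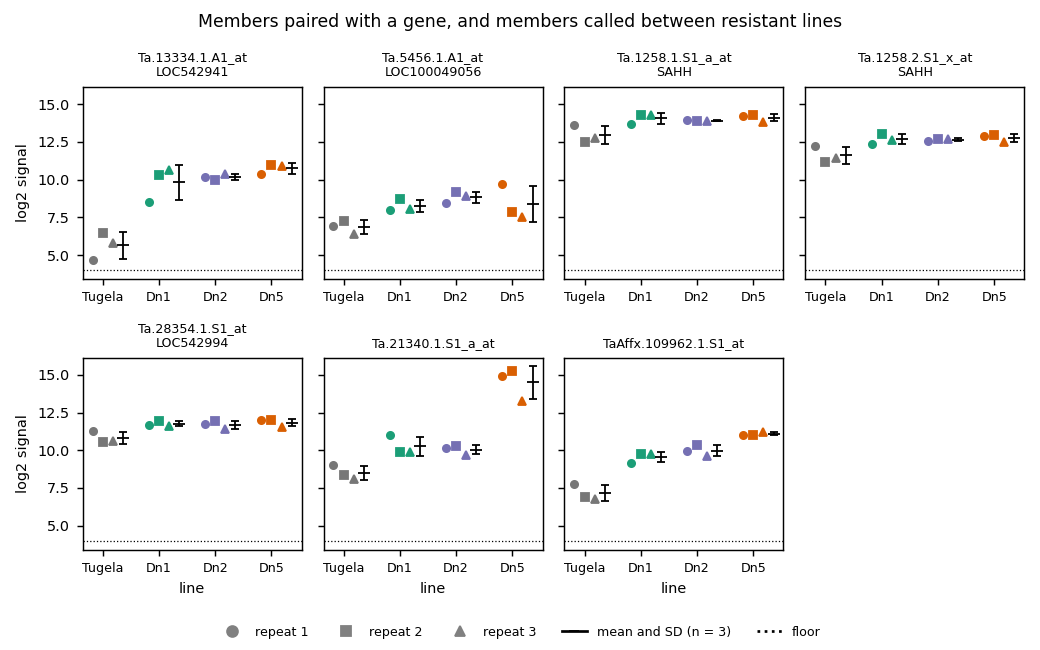
Log2 signal by line of the 5 members paired with a gene and of the 2 members called between resistant lines, with a symbol per repeat, the mean and SD of each line (n = 3) in black and the floor dotted. The SAHH probe sets have their highest Tugela value in repeat 1, and Ta.21340.1.S1_a_at stands at 13.27 to 15.26 in TugelaDn5 and at 9.71 to 10.98 in the other resistant lines.

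The largest difference was that of TaAffx.104444.1.S1_at, a probe set without a paired gene. It had log2 signals of 4.0, 5.90 and 4.0 in Tugela, 13, 12.59 and 12.79 in TugelaDn1, 12.41, 12.32 and 11.64 in TugelaDn2, and 12.33, 12 and 12.21 in TugelaDn5. It was the member with the widest gap (5.74). Tugela was dim, every resistant repeat was bright, and the resistant lines overlapped. The resistant mean was at least 212-fold the Tugela mean, a lower bound because 2 Tugela repeats were at the floor, and at least 329-fold without Tugela repeat 2.

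In 3 further members at least 2 Tugela repeats were at the floor, and 1 resistant repeat was low as well. Ta.23373.1.S1_at had 4.0 in all Tugela repeats, 11.05, 10.76 and 5.03 in TugelaDn1, 10.60, 8.76 and 10.76 in TugelaDn2, and 11.33, 11.10 and 11.32 in TugelaDn5. Ta.8254.1.A1_at had 4.0 in all Tugela repeats, 8.51, 9.88 and 5.46 in TugelaDn1, 7.85, 6.25 and 7.92 in TugelaDn2, and 9.28, 9.04 and 8.56 in TugelaDn5. Ta.28441.1.S1_x_at had 4.0, 6.27 and 4.0 in Tugela, 9.22, 9.65 and 6.37 in TugelaDn1, 8.36, 7.16 and 8.22 in TugelaDn2, and 8.45, 7.42 and 8.50 in TugelaDn5. On all 3 probe sets TugelaDn1 repeat 3 was the lowest resistant repeat, TugelaDn2 repeat 2 was the next lowest, and the remaining resistant repeats were higher. The resistant means were at least 67.6-fold, 16.9-fold and 10.5-fold the Tugela means in this order. The bound for Ta.23373.1.S1_at was 105-fold without TugelaDn1 repeat 3, and that for Ta.28441.1.S1_x_at was 17.8-fold without Tugela repeat 2. TugelaDn1 alone was at least 30.8-fold, 15.4-fold and 12.6-fold above Tugela with all its repeats, and at least 120-fold, 36.6-fold and 25.6-fold without repeat 3. Deviations from the line means of these members correlated with each other at r of 0.76 to 0.93 over the 12 repeats and at 0.91 to 0.95 over the 9 resistant repeats, values that share their arrays, and TugelaDn1 repeat 3 had the largest deviation on each of the 3 probe sets. Further probe sets of these sequences, which were no members, were also low in that repeat. Ta.23373.1.S1_x_at had 8.57 in TugelaDn1 repeat 3 against 10.97 and 10.88 in the other repeats of that line and 8.13 to 8.70 in Tugela, and Ta.28441.1.S1_at was at the floor in TugelaDn1 repeat 3. TugelaDn1 repeat 3 was more than 1 below both other repeats of its line in 4 members (4.82%) and in 5.71% of all probe sets, or 1.16% of those with a resistant mean of at least 8. The fourth such member was Ta.761.1.S1_at, with 6.95 in that repeat against 8.65 and 8.89.

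Ta.27760.1.S1_at likewise had Tugela close to the floor. It had 4.0, 4.76 and 4.78 in Tugela, 8.03, 7.77 and 10.71 in TugelaDn1, 8.83, 9.14 and 7.43 in TugelaDn2, and 10.96, 9.08 and 6.56 in TugelaDn5. The repeats of each resistant line were widely scattered, with an SD of 2.20 in TugelaDn5, although none of them overlapped Tugela (at least 18.5-fold, 1 Tugela repeat at the floor).

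**Figure D3:**
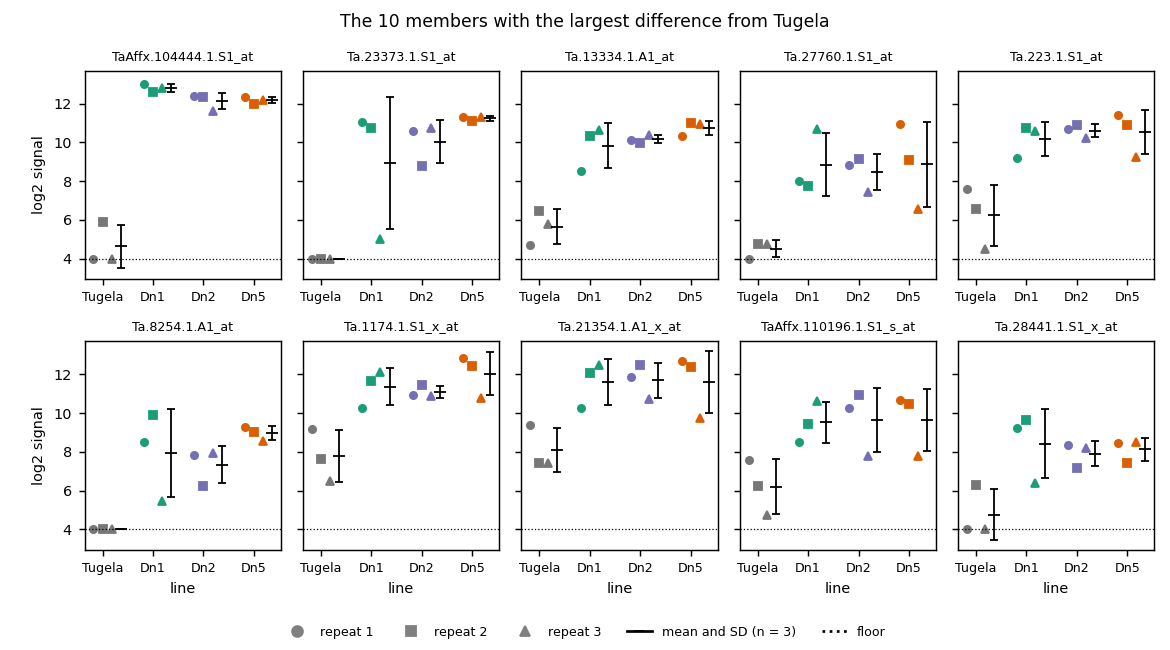
Log2 signal by line of the 10 members with the largest difference between the resistant mean and the Tugela mean, with a symbol per repeat, the mean and SD of each line (n = 3) in black and the floor dotted. TaAffx.104444.1.S1_at has the widest gap, and Ta.23373.1.S1_at, Ta.8254.1.A1_at and Ta.28441.1.S1_x_at are low in repeat 3 of TugelaDn1.

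The other 4 members among the 10 with the largest difference had no Tugela repeat at the floor and varied in Tugela in a common way. Tugela repeat 3 was nevertheless near the floor in Ta.223.1.S1_at (4.52) and TaAffx.110196.1.S1_s_at (4.76). Ta.223.1.S1_at had 7.62, 6.58 and 4.52 in Tugela, 9.19, 10.75 and 10.59 in TugelaDn1, 10.69, 10.90 and 10.23 in TugelaDn2, and 11.44, 10.92 and 9.24 in TugelaDn5 (18.4-fold). Ta.1174.1.S1_x_at had 9.18, 7.64 and 6.49 in Tugela, 10.29, 11.66 and 12.14 in TugelaDn1, 10.94, 11.47 and 10.89 in TugelaDn2, and 12.87, 12.44 and 10.79 in TugelaDn5 (13.3-fold). Both had Tugela repeat 1 as the highest of its line, and TugelaDn1 repeat 1 and TugelaDn5 repeat 3 as the lowest of theirs. Ta.21354.1.A1_x_at had 9.40, 7.44 and 7.42 in Tugela, 10.25, 12.07 and 12.49 in TugelaDn1, 11.85, 12.51 and 10.72 in TugelaDn2, and 12.70, 12.37 and 9.77 in TugelaDn5 (11.7-fold). TaAffx.110196.1.S1_s_at had 7.60, 6.22 and 4.76 in Tugela, 8.52, 9.43 and 10.61 in TugelaDn1, 10.27, 10.92 and 7.77 in TugelaDn2, and 10.68, 10.49 and 7.80 in TugelaDn5 (10.7-fold). On these Tugela repeat 1 came close to the lowest resistant repeat, leaving gaps of 0.36 and 0.17, whereas the gaps of Ta.223.1.S1_at and Ta.1174.1.S1_x_at were 1.57 and 1.12. The folds rested on single Tugela repeats. Without Tugela repeat 1 they were 29.7 in Ta.223.1.S1_at, 21.7 in Ta.1174.1.S1_x_at, 18.5 in Ta.21354.1.A1_x_at and 17.4 in TaAffx.110196.1.S1_s_at. Without Tugela repeat 3 they were 10.1 in Ta.223.1.S1_at, 8.52 in Ta.1174.1.S1_x_at and 6.51 in TaAffx.110196.1.S1_s_at.

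This alternation of repeats ran through much of the group. Tugela repeat 1 was the highest Tugela repeat in 58 members, with a median deviation from the line mean of 0.36. TugelaDn1 repeat 1 was the lowest of its line in 51 members (median deviation -0.29), and TugelaDn5 repeat 3 was the lowest of its line in 62 (median deviation -0.40), while TugelaDn5 repeat 1 was the highest of all 9 resistant repeats in 49. Over the 18614 probe sets with a resistant mean of at least 8 the median deviation of every repeat lay between -0.01 and 0.01. The lowest of all resistant repeats was TugelaDn1 repeat 1 in 35 members, TugelaDn1 repeat 3 in 16 and TugelaDn5 repeat 3 in 12. The labels give 2 arrays for TugelaDn5 repeat 3 and do not say whether both received the same RNA. These arrays differed by a median of 0.12 over the members, against a median of -0.60 for that repeat relative to the mean of repeats 1 and 2. The median SD within a line was 0.46 in Tugela, 0.40 in TugelaDn1, 0.33 in TugelaDn2 and 0.44 in TugelaDn5 over the members, against 0.19, 0.21, 0.19 and 0.18 over the probe sets with a resistant mean of at least 8.

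**Figure D4:**
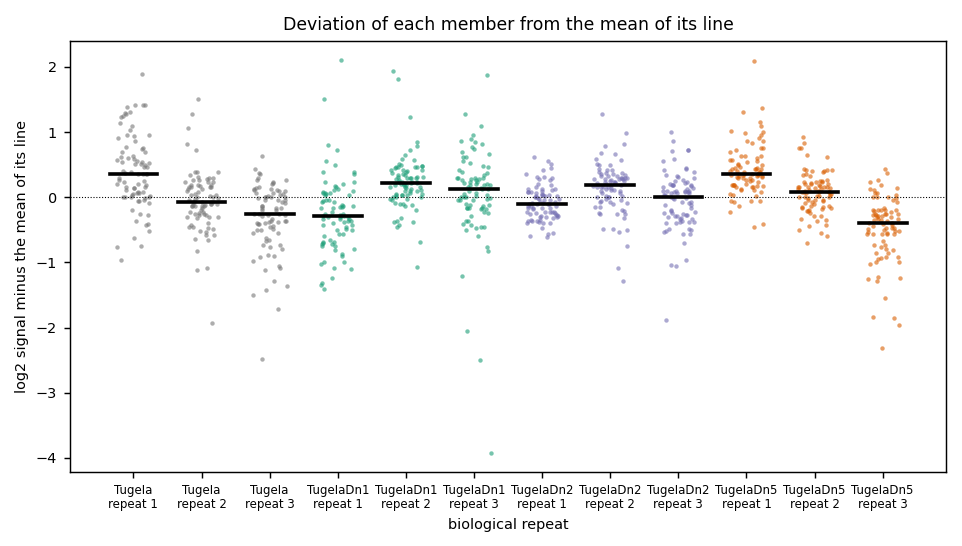
Deviation of each of the 83 members from the mean of its line (log2 signal, points) in the 12 biological repeats, with the median over the members as a black bar. The medians are highest in Tugela repeat 1 and TugelaDn5 repeat 1 (0.36 each) and lowest in TugelaDn5 repeat 3 (-0.40) and TugelaDn1 repeat 1 (-0.29).

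Within lines many of the members moved together. The correlation of deviations from the line means over the 12 repeats, which share their arrays and scaling, had a median of 0.32 over 3403 pairs of members and was above 0 in 74.6% of them. A member's correlation with the median of the other members had a median of 0.65 and exceeded 0.5 in 51 members (61.4%), against 8.03% of the other probe sets and 11.0% of those with a resistant mean of at least 8. The other probe sets were not matched to the members for SD within lines. Over all probe sets the median SD was 0.40 in Tugela, 0.41 in TugelaDn1, 0.38 in TugelaDn2 and 0.38 in TugelaDn5. The members' median SD was above these values in Tugela and TugelaDn5 and below them in TugelaDn1 and TugelaDn2. Compared with probe sets with a resistant mean of at least 8, it was larger in every line. In addition, 15 members lay in 7 shared transcript clusters, whose probe sets can read the same RNA. The first principal component held 48.0% of the within-line sum of squares of the members. The 51 members had a median difference from Tugela of 1.77, compared with 1.34 for the other 32, and a median SD of 0.56 within Tugela, compared with 0.31. In 11 members the correlation was below 0, among them TaAffx.104444.1.S1_at (-0.18), Ta.23373.1.S1_at (-0.25) and LOC542941 on Ta.13334.1.A1_at (-0.06), which were the 3 members with the largest difference from Tugela.

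PR5, a thaumatin-like pathogenesis-related protein gene that responds to salicylic acid, was no member, yet followed the same repeats. Its probe set Ta.24501.1.S1_at had 13.28, 9.17 and 8.38 in Tugela, 13.10, 13.81 and 14.18 in TugelaDn1, 13.55, 14.16 and 12.87 in TugelaDn2, and 13.99, 13.60 and 9.89 in TugelaDn5. Tugela repeat 1 was at the level of the resistant repeats and TugelaDn5 repeat 3 at the level of the low Tugela repeats, so that the groups overlapped (difference 2.96 ± 1.1, SE, limma adjusted p = 0.419). The correlation of PR5 with the median of the members within lines was 0.88 over the 12 repeats, and it exceeded 0.5 with 47 members singly and was below 0 with 14. PR5 was named for this high value, which most listed genes did not share. Among 83 listed probe sets with a value, the correlation with the median of the members ranged from -0.91 to 0.88, above 0.5 in 9 and below -0.5 in 18. Among the 19 of the defence list it was above 0.5 in 3 and below -0.5 in 6. Among the 34 of the photosynthesis list, most of which read rbcl, it was above 0.5 in 2 and below -0.5 in 10. The latter counts thus mostly describe probe sets of 1 gene. Negative values were not confined to it, however. The brightest probe sets of the photosynthesis genes had -0.62 for rbcl, -0.72 for PsbO, -0.54 for PsbP, -0.59 for PRK and -0.02 for FBP.

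Among the resistant lines, which the rule did not rank, TugelaDn5 had the highest mean in 59 members (71.1%), TugelaDn2 in 19 and TugelaDn1 in 5. The level of 8 applied to the resistant repeats together, so that a member could pass it through a single high line. Ta.9430.1.S1_at, for example, averaged 10.06 in TugelaDn5, while TugelaDn1 (7.87) and TugelaDn2 (7.76) stayed under 8. Such members, whose number was not counted, were kept in the counts by line and in the tests between lines. TugelaDn5 was highest in 35% of all probe sets with an order of the 3 lines and in 40.0% of those with a resistant mean of at least 8. TugelaDn1 had the lowest mean in 52 members, TugelaDn2 in 27 and TugelaDn5 in 4. All TugelaDn5 repeats were above all TugelaDn1 repeats in 15 members (18.1%, against 9.23% of all probe sets) and above all TugelaDn2 repeats in 18 (21.7%, against 8.58%). All TugelaDn2 repeats were above all TugelaDn1 repeats in 11 members (13.3%, against 6.46%), and the reverse orders were found in 1, 0 and 1 members (8.57%, 7.63% and 6.56% of all probe sets). For these orders without overlap, the shares among probe sets with a resistant mean of at least 8 were not counted.

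Few of these differences passed the test. TugelaDn1 was lower than TugelaDn5 in 2 of 83 members (limma, Benjamini-Hochberg adjusted p under 0.05 over all probe sets, of which 1.89% were called in either direction and 0.704% lower in TugelaDn1). TugelaDn2 was lower than TugelaDn5 in 1 member, where 1.29% of all probe sets were called and 0.425% were lower in TugelaDn2, and none of the members was called between TugelaDn1 and TugelaDn2, where 0.0736% of all probe sets were called. At an unadjusted p under 0.05 there were 16 members (19.3%, against 13.3% of all probe sets) between TugelaDn1 and TugelaDn5, 11 (13.3%, against 10.8%) between TugelaDn2 and TugelaDn5, and 7 between TugelaDn1 and TugelaDn2. All 7 were lower in TugelaDn1 (8.43%, against 4.10% of all probe sets lower and 4.90% higher). With moderated variances that followed the level and a robust prior, 1 member was called in this last comparison. The median standard error of a difference between 2 resistant lines was 0.37 over the members, so that differences of the size of the medians (-0.12, -0.42 and -0.30 for TugelaDn1 minus TugelaDn2, TugelaDn1 minus TugelaDn5 and TugelaDn2 minus TugelaDn5) were not detectable for single members with 3 repeats per line. An F test for any difference among the resistant lines called 1 member, where 1.76% of all probe sets were called, and 14 members (16.9%, against 13.4%) had an unadjusted p under 0.05.

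**Figure D5:**
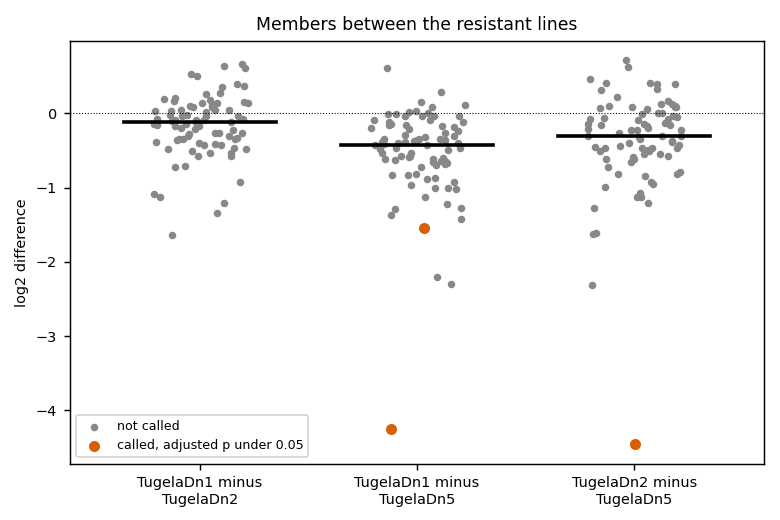
Log2 difference between pairs of resistant lines for each of the 83 members (points), with the median as a black bar and members with an adjusted p under 0.05 (limma, over all probe sets) in orange. The called members are Ta.21340.1.S1_a_at at -4.25 and -4.46 and TaAffx.109962.1.S1_at at -1.54.

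Ta.21340.1.S1_a_at was the member with the largest inequality among the resistant lines. It had log2 signals of 9.01, 8.38 and 8.12 in Tugela, 10.98, 9.88 and 9.89 in TugelaDn1, 10.12, 10.29 and 9.71 in TugelaDn2, and 14.95, 15.26 and 13.27 in TugelaDn5. TugelaDn1 and TugelaDn2 overlapped each other, and TugelaDn5 stood apart from both in every repeat. It was 19.0-fold lower in TugelaDn1 than in TugelaDn5 (difference -4.25 ± 0.52, SE, limma adjusted p = 0.00314) and 22-fold lower in TugelaDn2 than in TugelaDn5 (-4.46 ± 0.52, adjusted p = 0.00247). Against Tugela the folds were 3.35 in TugelaDn1, 2.90 in TugelaDn2 and 63.6 in TugelaDn5. The remaining probe sets of its transcript cluster, no members, were also brightest in TugelaDn5. Ta.21340.1.S1_at had 12.51, 13 and 10.92 there against 6.60 to 8.57 in the other lines, and Ta.21340.2.S1_at had 7.64, 8.47 and 5.67 against 4.0 to 7.01, where TugelaDn5 repeat 3 overlapped the others.

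TaAffx.109962.1.S1_at had 7.77, 6.93 and 6.80 in Tugela, 9.18, 9.74 and 9.74 in TugelaDn1, 9.96, 10.35 and 9.60 in TugelaDn2, and 11.03, 11.04 and 11.22 in TugelaDn5. The levels increased from Tugela over TugelaDn1 and TugelaDn2, which overlapped, to TugelaDn5, whose repeats had an SD of only 0.11. It was 2.91-fold lower in TugelaDn1 than in TugelaDn5 (-1.54 ± 0.29, SE, adjusted p = 0.0318), while the difference between TugelaDn2 and TugelaDn5 was -1.12 ± 0.29 (adjusted p = 0.138). The call did not hold without any of TugelaDn1 repeats 1, 2 and 3 (adjusted p = 0.106, 0.0647 and 0.0619), TugelaDn5 repeats 1, 2 and 3 (0.0919, 0.0911 and 0.0950) or TugelaDn2 repeat 1 (0.0559), nor with the repeat number as a block (0.0830). Neither of the called members was paired with a gene.

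The smallest adjusted p between TugelaDn1 and TugelaDn2 was that of TaAffx.82113.1.S1_x_at, with 7.95, 8.44 and 8.07 in Tugela, 8.47, 9 and 9.45 in TugelaDn1, 10.32, 10.72 and 10.80 in TugelaDn2, and 10.62, 9.40 and 9.94 in TugelaDn5. All TugelaDn2 repeats exceeded all TugelaDn1 repeats, and TugelaDn1 repeat 1 was only 0.03 above Tugela, but the difference of -1.64 ± 0.34 (SE) did not pass (adjusted p = 0.167). Ta.9243.1.S1_at had 10.01, 9.61 and 10.00 in Tugela, 10.56, 10.57 and 10.93 in TugelaDn1, 10.93, 10.67 and 11.88 in TugelaDn2, and 12.01, 11.93 and 11.97 in TugelaDn5. The TugelaDn5 repeats were tightly grouped above all others, and TugelaDn1 minus TugelaDn5 was -1.29 ± 0.29 (SE, adjusted p = 0.0604).

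Both of these members also lay just inside the step of 0.8. The smallest difference of a line from Tugela was 0.8 in Ta.24479.1.S1_at, 0.804 in Ta.26048.1.S1_x_at, 0.811 in Ta.9243.1.S1_at, 0.814 in Ta.23079.2.S1_at and 0.818 in TaAffx.82113.1.S1_x_at, with TugelaDn1 the nearest line in 4 of the 5. Just outside were Ta.24723.1.S1_x_at (0.799), Ta.13696.1.S1_at (0.789), TaAffx.13367.1.A1_at (0.788), Ta.1385.1.S1_x_at (0.778) and Ta.8002.1.S1_s_at (0.758). At the level of 8, TaAffx.128570.1.S1_at had a resistant mean of 8.02 and Ta.8548.1.A1_at and Ta.24479.1.S1_at had 8.03, whereas Ta.5197.1.A1_at (7.99) and Ta.22759.1.S1_x_at (7.94) fell below it and Ta.2278.3.S1_x_at (8.0 after rounding) lay just under it. The edges of the group were thus continuous on both measures.

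The 83 members belonged to 75 transcript clusters, the groups of related sequences that give probe sets the first part of their name, and 7 clusters held 15 of them. The cluster Ta.7223 held 3. Ta.7223.2.S1_at had 8.64, 7.66 and 5.90 in Tugela, 9.04, 10.30 and 10.18 in TugelaDn1, 10.10, 10.55 and 9.89 in TugelaDn2, and 10.86, 10.17 and 10.21 in TugelaDn5 (6.72-fold). Tugela repeat 1 was its highest Tugela value and TugelaDn1 repeat 1 its lowest resistant value, and the fold was 10.3 without Tugela repeat 1 and 3.99 without Tugela repeat 3. The steps of Ta.7223.1.S1_x_at and Ta.7223.3.S1_x_at were 2.49-fold and 4.19-fold, with TugelaDn5 repeat 3 (9.08) the lowest resistant repeat of the former and TugelaDn1 repeat 1 (6.98) that of the latter. In cluster Ta.21354, Ta.21354.1.A1_at had 8.60, 7.06 and 7.26 in Tugela and 9.59, 10.96 and 11.31 in TugelaDn1. It had 10.75, 11.28 and 9.43 in TugelaDn2, and 11.96, 11.30 and 8.69 in TugelaDn5. As on Ta.21354.1.A1_x_at, Tugela repeat 1 was the highest of its line and TugelaDn5 repeat 3 the lowest resistant repeat. The 7.71-fold step of Ta.21354.1.A1_at narrowed to a gap of 0.09 between Tugela repeat 1 and TugelaDn5 repeat 3.

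Cluster Ta.7022 held Ta.7022.1.S1_s_at, with 6.41, 5.91 and 4.69 in Tugela, 7.14, 7.90 and 8.63 in TugelaDn1, 8.86, 9.65 and 9.20 in TugelaDn2, and 9.82, 9.47 and 8.64 in TugelaDn5 (8.83-fold), and Ta.7022.1.S1_at (3.68-fold). The former was 4.66-fold above Tugela in TugelaDn1, 11.8-fold in TugelaDn2 and 12.5-fold in TugelaDn5, differences between the resistant lines that were not called (smallest adjusted p = 0.265). In cluster Ta.9332 the members were Ta.9332.2.A1_at (4.47-fold) and Ta.9332.1.S1_x_at (3.47-fold), in both of which Tugela repeat 1 was the highest of its line (8.37 and 9.20) and repeat 3 the lowest (6.55 and 7.21). In cluster Ta.6606 they were Ta.6606.2.S1_x_at (2.61-fold) and Ta.6606.1.A1_a_at (1.98-fold). Tugela repeat 1 was the highest Tugela repeat on the former (11.32 against 10.45 and 10.34) and the lowest on the latter (9.40 against 9.99 and 10.04).

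A further 77 probe sets, none a member, lay in 31 of the members' clusters. Of these, 63 had a higher resistant mean than Tugela mean and 11 did not overlap Tugela, with a median difference of 0.57. Over all probe sets 48.8% were higher, 0.757% were higher without overlap, and the median was 0.00. Of the 77, 45 had a resistant mean of at least 8, of which 40 were higher and 10 did not overlap, with a median of 0.78. At that level 1.68% of all probe sets were higher without overlap, and the share of higher ones was not counted. Probe sets of 1 cluster can read the same RNA, so that those of the members' clusters are no independent transcripts. In cluster Ta.23373, in contrast, the probe sets of other sequences of the cluster, Ta.23373.2.S1_at (10.20 to 10.87), Ta.23373.3.S1_at (11.06 to 11.96) and Ta.23373.3.S1_x_at (10.68 to 11.18), overlapped between Tugela and the resistant lines. Names ending in _x_at, given to probe sets whose probes may match other transcripts, were found for 22 members (26.5%, against 11.1% of all probe sets), and names beginning with TaAffx for 16 (19.3%, against 48.5%).

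None of the 84 probe sets of the photosynthesis, seed storage, dividing tissue and defence lists was a member, which says nothing particular to these lists because 0.136% of all probe sets were members. Of 20 defence probe sets for 11 genes, 9 had a higher resistant mean, and the median difference was -0.04. Over the 4 lists together, 0 of 84 probe sets were called for the mean of the resistant lines against Tugela (limma, 0.242% of all probe sets called). At an unadjusted p under 0.05, 5 of them were higher and 5 lower, where 9.40% of all probe sets passed. COMT1, whose enzyme methylates lignin precursors, had 11.45, 10.69 and 11.08 in Tugela, 11.95, 12.49 and 11.64 in TugelaDn1, 11.43, 12.09 and 12.02 in TugelaDn2, and 11.98, 12.07 and 11.62 in TugelaDn5. It missed the rule by the overlap of Tugela repeat 1 with TugelaDn2 repeat 1 and by a difference of only 0.77 in TugelaDn2, and its overall difference of 0.85 ± 0.24 (SE) was not called (adjusted p = 0.257). In single lines, 1 defence probe set, Ta.1282.4.S1_at of the lipid transfer protein gene LTP3, was lower in TugelaDn5 than in Tugela (-2.11, adjusted p = 0.0275), where 1.25% of all probe sets were called lower. The brighter LTP3 probe set, Ta.1282.1.S1_x_at (14.40 to 15.05), differed by -0.18 in TugelaDn5 and was not called (adjusted p = 0.759). Of the seed storage list, Ta.905.2.S1_x_at was lower in TugelaDn5 than in Tugela (-2.96, limma adjusted p = 0.0120). Of the dividing tissue list, Ta.214.2.A1_x_at of Tubb5 was higher there (1.07, limma adjusted p = 0.0473). The share of all probe sets called higher is not given here. Further listed probe sets of these genes were not called. Chitinases, glucanases, lipoxygenases and genes with a PR symbol other than PR5 were not matched in the platform table by the symbols searched.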

How the data were processed

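RNA of 12 biological repeats was hybridised to 13 single-colour Affymetrix wheat arrays. The authors deposited linear intensities per probe set that they had scaled, with a trimmed mean of 500.1 on every array (2% of values removed at each end). The summarising software is not given in the sources used here, and the series design names a linear mixed model. Median intensities were 82.3 to 97.8, and 19.3% to 21.4% of values per array were under 16. Of 61290 probe sets, 111 controls were removed. For TugelaDn2 and TugelaDn5 the description field gives the name of TugelaDn1. The title, source and genotype, which are uniform, were followed. TugelaDn5 repeat 3 had 2 arrays, averaged on the log2 scale as 1 repeat (the labels name the same biological repeat for both). The number of arrays limits the precision, and p-values compare a difference with the spread between these repeats.

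Contrasts were fitted with limma 3.58.1 in R 4.3.3 (lmFit, eBayes) over all 61179 probe sets and 4 lines, with 8 residual and 1.45 prior degrees of freedom and Benjamini-Hochberg adjustment within a contrast. The procedure was tested on simulated data. Folds against Tugela repeats at the floor are lower bounds. Alternatives were other floors, either array of the repeat hybridised to 2 arrays, renewed quantile normalization, scaling to the median of bright probe sets, leaving out each repeat, other thresholds and other fits. Genes came from the platform table (1273 probe sets with 1 gene, 771 genes), with names from RefSeq (assembly IWGSC CS RefSeq v2.1). The members, lists and rules were chosen with earlier results of these data known. Named members were those with a gene, the 10 with the largest difference, those next to a threshold (5 on each side of the step, 3 of the level), those called between resistant lines and those of 5 clusters with more than 1 member. The lists covered photosynthesis, seed storage, dividing tissue and defence.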

Additional observations from a re-analysis of the deposited data

Results flagged for a closer look

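Of the members, 2 were flagged because the test of the difference between resistant lines passed, so that their difference from Tugela was unequal among these lines. Ta.21340.1.S1_a_at differed by -4.25 between TugelaDn1 and TugelaDn5 (limma adjusted p = 0.00314, range over the alternatives 0.000773 to 0.0170) and by -4.46 between TugelaDn2 and TugelaDn5 (adjusted p = 0.00247, range 0.000564 to 0.0150), and every TugelaDn5 repeat was above every repeat of the other lines. TaAffx.109962.1.S1_at differed by -1.54 between TugelaDn1 and TugelaDn5 (adjusted p = 0.0318, range 0.00133 to 0.106), and again all 3 TugelaDn5 repeats were the highest. Groups of 3 repeats were not tested for outlying values.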

How the results depend on the processing

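The number of members (83) was within 1.5 times of that value in 19 of 23 alternatives. It was 139 at a step of 0.5, 42 at a step of 1.2 and 53 at a level of 9, as fewer or more probe sets then qualify by construction, and 77 (without TugelaDn5 repeat 1) to 241 (without Tugela repeat 1) when single repeats were left out. Of the 83, 47 stayed members whichever repeat was left out. Members called between TugelaDn1 and TugelaDn2 numbered 1 instead of 0 under eBayes with trend and robust settings, and 0 whichever repeat was left out. Between TugelaDn1 and TugelaDn5 they numbered 4 instead of 2 under that setting, 1 with a floor of 1, 1 with the replicate number as a block, and 1 to 3 when single repeats were left out. Those with 1 were without TugelaDn1 repeat 2, TugelaDn2 repeat 1 or TugelaDn5 repeats 1, 2 or 3. Between TugelaDn2 and TugelaDn5 they numbered 2 instead of 1 under eBayes with trend and robust settings, and 1 to 2 when single repeats were left out (2 without TugelaDn2 repeat 3). For the F test, whose alternatives were added after seeing the data as were those of the gene lists, they numbered 2 with the highest floor tried, 4 with trend and robust settings, 4 with only probe sets above the median level, and 1 to 2 without single repeats (2 without Tugela repeat 1 or TugelaDn2 repeat 3). The causes were not tested. For the mean of the resistant lines against Tugela, the lists had 0 calls in all 22 alternatives.

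The differences of the 33 named members from Tugela, whose direction the choice of members fixes, had 627 alternative values. Of these, 17, in 8 members, moved by more than the SD within lines. Main values and ranges were 7.73 (5.36 to 8.64) in TaAffx.104444.1.S1_at, 6.08 (3.30 to 8.39) in Ta.23373.1.S1_at and 4.60 (3.25 to 5.01) in Ta.13334.1.A1_at. In Ta.27760.1.S1_at, Ta.8254.1.A1_at and Ta.28441.1.S1_x_at they were 4.21 (1.77 to 4.80), 4.08 (1.34 to 5.37) and 3.40 (1.22 to 4.15). In Ta.7022.1.S1_s_at and Ta.7223.3.S1_x_at they were 3.14 (1.81 to 3.51) and 2.07 (1.42 to 2.34). In all 8 the lowest value lay below every value with a repeat left out. Leaving out 1 repeat moved the fold of 8 named members by over 1.5 times, as given beside them. The calls of Ta.21340.1.S1_a_at passed in all 23 alternatives, whereas TaAffx.109962.1.S1_at lost its call in 9. Same-numbered repeats of different lines correlated at -0.20 to 0.28 over 18 pairs, 6 of them above 0.1, so that the numbers were not taken to pair samples, and the block changed no other call of members. A fit of all 13 arrays with the repeat as a random block could not be fitted because only 1 repeat had 2 arrays. In 6 members at least 1 Tugela repeat was at the floor, so that their folds are lower bounds.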

Other observations

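Named after their values were seen, some probe sets in the members' clusters were dark in TugelaDn5 although the member itself was not. Ta.21998.2.S1_at had 7.84 to 8.41 in Tugela, 8.26 to 8.83 in TugelaDn1 and 7.72 to 8.57 in TugelaDn2, but was at the floor in every TugelaDn5 repeat. The member of that cluster, Ta.21998.1.A1_x_at, had 12.41, 12.36 and 11.68 in TugelaDn5. Likewise, Ta.24650.2.A1_at had 7.36 to 8.61 in the other lines and was at the floor in all TugelaDn5 repeats, whereas the member Ta.24650.3.S1_a_at had 8.68, 9.08 and 8.22 there.

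Ta.2837.1.S1_s_at, a beta-tubulin probe set (tubb3) of the dividing tissue list, did not overlap between groups, with 11.94, 11.92 and 11.89 in Tugela and 11.95 to 12.68 in the resistant lines. Its difference of 0.34 was far below the step of the members and was not called (limma adjusted p = 0.487).

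Ta.9430.1.S1_at, a member also named after its values were seen, had 7.21, 4.0 and 6.57 in Tugela, 7.90, 7.45 and 8.24 in TugelaDn1, 7.29, 7.23 and 8.76 in TugelaDn2, and 9.98, 10.99 and 9.21 in TugelaDn5. The TugelaDn5 repeats were the highest, and TugelaDn1 and TugelaDn2 lay above Tugela repeat 1, by as little as 0.01.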
